A study of Triticum aestivum with 6 samples.

Results

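The genes described here lie in a stretch of wheat chromosome 7B and a stretch of chromosome 7D that face a silent run of genes on chromosome 7A. The 7B span holds the listed genes with identifiers from TraesCS7B02G208000 to TraesCS7B02G237000, and the 7D span those from TraesCS7D02G305000 to TraesCS7D02G332000, both ends included. Of the 70043 genes in the count table, 434 are members, 231 on 7B and 203 on 7D. The spans were chosen by values of the same comparison, the counts of the facing 7A genes from TraesCS7A02G316900 to TraesCS7A02G327700, which were close to 0 in every mutant library. The members' own values were not used to place the spans. The facing position rests on the order of the identifiers alone, because no table at hand pairs a 7A gene with its 7B and 7D copies.

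RNA was sequenced from axillary buds, the side buds that grow into tillers, of the spring wheat cultivar Fielder and of a tatfl1-5 mutant in the Fielder background. The mutant was made by CRISPR/Cas9 editing of TaTFL1-5, a gene of the TERMINAL FLOWER 1 family, which keeps shoot meristems from turning into flowers. It carries edited alleles in the A, B and D copies (aabbdd), and Fielder is the unedited wild type. Each group has 3 libraries from biological repeats, so every value compares 1 edited genotype with its parent cultivar, and changes carried by that line but unrelated to the edited gene cannot be told apart from the effect of the edits.

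Bread wheat is an allohexaploid: it carries A, B and D subgenomes, and most genes are present as homoeologs, that is, as related copies at matching places of the A, B and D chromosomes. When a copy is lost, the remaining homoeologs may be transcribed as before, so that the total for the gene family falls, or may be transcribed more, so that the total is partly or wholly kept. The latter is called dosage compensation. For these data the question is whether expression in the 7B and 7D spans rises in the mutant relative to the rest of 7B and 7D. In bulk buds, a change in RNA per cell and a change in the share of cells that express a gene cannot be told apart.

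Total counts per library ran from 13320461 to 17174131. A count was therefore worth 0.0583 to 0.0725 CPM, the count relative to library size, scaled here by the trimmed mean of M-values (TMM), which sets the fold change of the bulk of genes near 1. The median log2 fold change of the 52228 genes that passed the filter on low counts was 0.00, while the summed CPM of all genes was 1.05-fold in the mutant, since TMM does not hold the sum constant. Counts of the targeted genes were low. TaTFL1-5A had 9, 14 and 21 counts in Fielder against 1, 7 and 5 in the mutant, and TaTFL1-5B had 46, 44 and 31 against 20, 19 and 23. Neither gene passed the test (adjusted p = 0.147 and 0.131, edgeR quasi-likelihood test, adjusted by Benjamini-Hochberg). The libraries also differed in broad gene groups. A list of 7 photosynthesis-antenna genes, which bind light-harvesting pigments in green tissue, summed to 0.145 to 1.93 CPM in Fielder and 52.6 to 56.6 CPM in the mutant, with 2 genes at 0 in every Fielder library and 0 genes in every mutant library. A list of 15 DNA replication genes, active in dividing cells, summed to 449 to 501 CPM against 1645 to 1750 CPM. Both lists were drawn, by pathway name, from the study's table of changed genes, so their members had to differ between the groups, and their part in the values of the spans was not tested.

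The 7A run defines what the spans face, and its values are given as a description. It holds 77 listed genes, and its raw counts summed to 16244, 18946 and 22796 in Fielder and to merely 22, 21 and 21 in the mutant. In the mutant, 68 of the 77 genes had at most 3 counts in every library while Fielder had more, 5 were at that floor in both groups, and 4 were above it in both. Summed over the run, expression was 1178, 1218 and 1328 CPM in Fielder against 1.34, 1.35 and 1.38 CPM in the mutant, a loss of 1240 CPM. TraesCS7A02G317500, the most abundant gene of the run per length, had 3919, 5202 and 6819 counts in Fielder but 0 in each mutant library, which is at least 1770-fold lower when the floor is set at 3 counts per library. At the first edge the step was sharp. TraesCS7A02G316800, the listed gene just before the run, had 682, 1220 and 1738 counts in Fielder against 1976, 2032 and 1959 in the mutant. By contrast, TraesCS7A02G316900, the first gene inside, had 276, 434 and 446 against 0, 1 and 0. The last gene inside, TraesCS7A02G327700, had 116, 144 and 164 against 0, 0 and 0. The next listed gene had at most 6 counts in any library of either group, so it cannot show where the run ends. Whether the DNA of the run is missing or its genes are silent cannot be told from RNA.

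The boundaries of the 7B and 7D spans showed no such step. These boundaries are rounded identifier numbers, not matched to the edges of the run. The lack of a step there therefore says nothing about the copies that face the run. TraesCS7B02G207900, the nearest tested gene before the 7B span, had 23, 21 and 39 counts in Fielder against 46, 40 and 37 in the mutant, and TraesCS7B02G208000, the first gene inside, had 208, 259 and 213 against 233, 283 and 232. At the other end, TraesCS7B02G237000 had 1420, 1779 and 1891 against 1986, 2148 and 1975, and TraesCS7B02G237100, just outside, had 88, 57 and 103 against 123, 74 and 150. On 7D, TraesCS7D02G304600, just outside, had 207, 214 and 264 against 147, 155 and 198, and TraesCS7D02G305100, the first tested gene inside, had 1, 15 and 14 against 48, 11 and 12. TraesCS7D02G331600, the last tested gene inside, had 186, 212 and 210 against 233, 166 and 165, and TraesCS7D02G332300, just outside, had 405, 300 and 289 against 218, 215 and 185. Genes on both sides of each boundary were expressed in both groups.

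**Figure D1:**
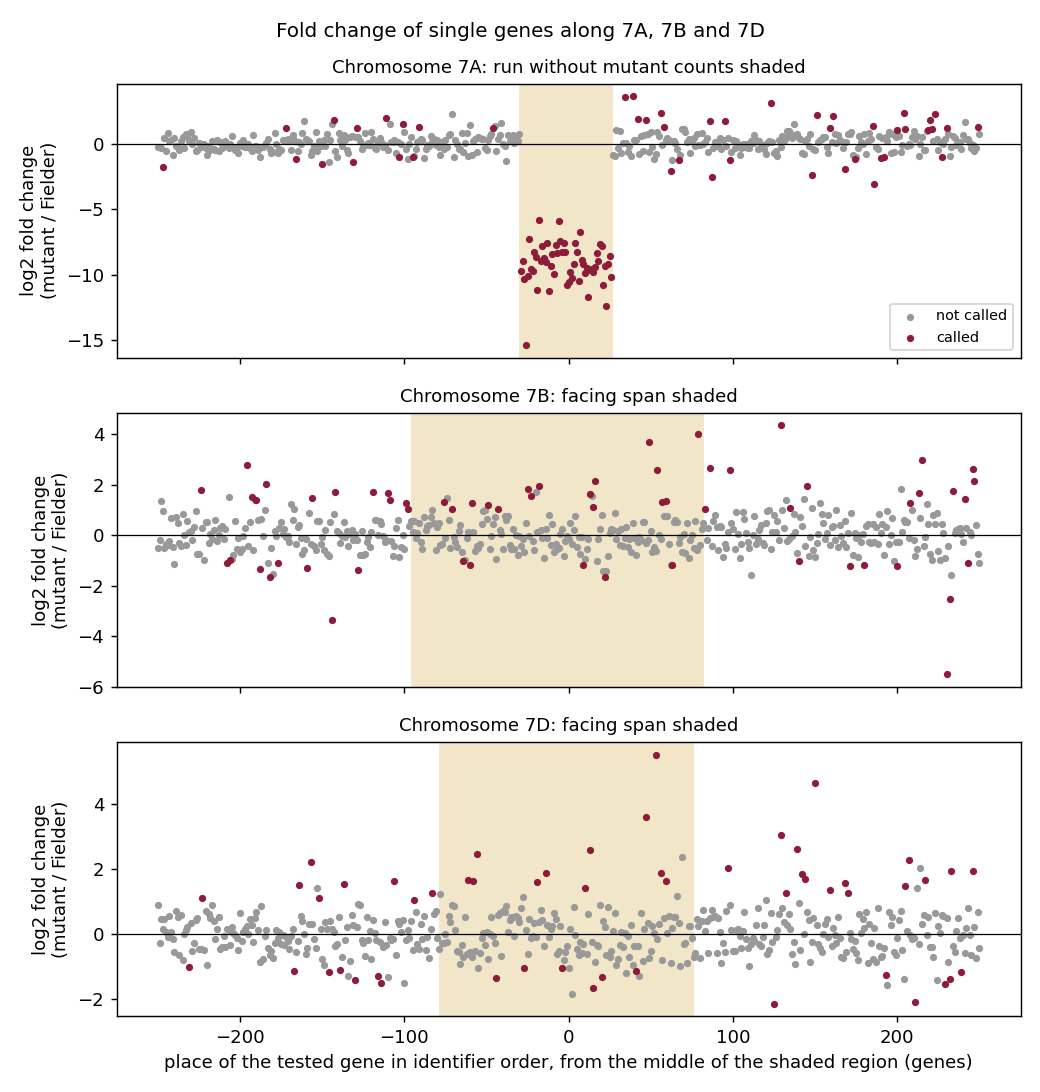
Log2 fold change (mutant over Fielder) of each tested gene on chromosomes 7A, 7B and 7D, by its place in identifier order from the middle of the shaded region. All 56 tested genes of the 7A run lie far below 0, with a median of -9.17, while the genes of the shaded 7B and 7D spans scatter around 0 on both sides as their neighbours do; dark points are called genes.

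Summed expression was higher in the mutant in both spans. The 7B span summed to 3663, 3773 and 3740 CPM in Fielder against 4263, 4431 and 4306 CPM in the mutant, means of 3726 ± 56.4 and 4333 ± 87.5 CPM (SD, n = 3). The 7D span summed to 2970, 3056 and 3084 CPM and to 3625, 3736 and 3660 CPM, means of 3037 ± 59.7 and 3674 ± 57.0 CPM (SD, n = 3). In each span every mutant library lay above every Fielder library. The ratio of the means was 1.16 on 7B, with 1.13 to 1.21 over the 9 pairs of a mutant and a Fielder library, and 1.21 on 7D, with 1.18 to 1.26. For the rest of 7B the ratio was 1.02, over 2834 listed genes, and for the rest of 7D it was also 1.02, over 3332 genes. With 3 libraries against 3, an exact permutation test cannot give a two-sided p below 0.10, and no test was made of these sums.

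The spans also took a larger share of their own chromosomes, a measure that a single scaling factor per library cannot move. A correction that differs between genes, such as by gene length, can move it, and the shares under such a correction are not given here. The 7B span held 9.11%, 9.25% and 9.09% of the summed expression of 7B in Fielder, compared with 10.2%, 10.3% and 10.4% in the mutant. The 7D span held 6.24%, 6.37% and 6.25% of 7D and then 7.30%, 7.31% and 7.43%. Neither pair of groups overlapped.

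**Figure D2:**
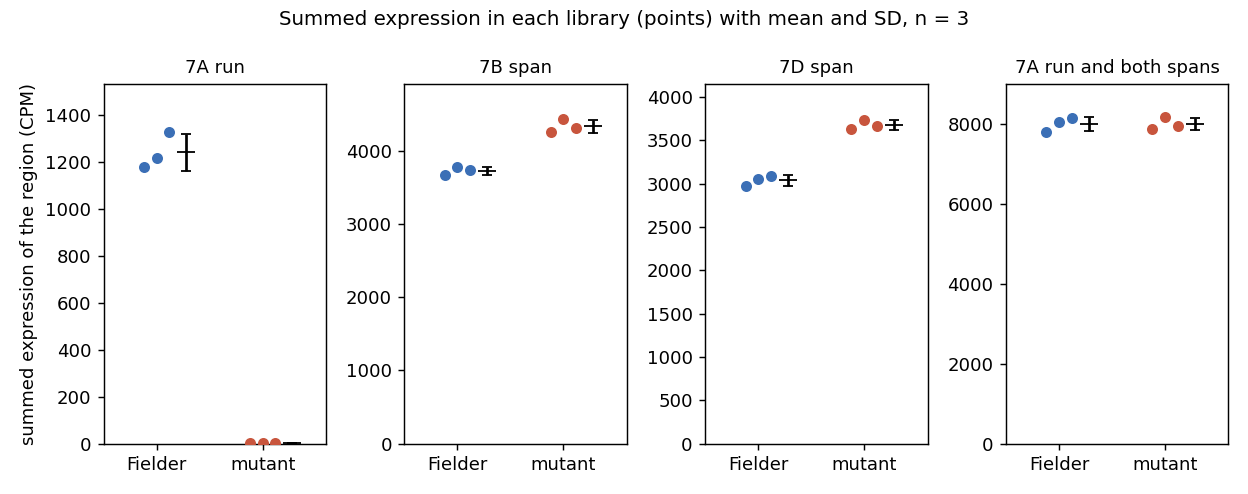
Summed expression (CPM, from 0) of the 7A run, the 7B span, the 7D span and all of them together; points are single libraries, and the black marks give the mean and SD of the 3 libraries of each group. The 7A run drops from a mean of 1241 to 1.36 CPM, both spans are higher in every mutant library, and with this TMM scaling the total is 8004 CPM in Fielder and 8008 CPM in the mutant, whereas by library size alone (not drawn) it is 8160 and 7803 CPM.

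With TMM scaling the spans together gained 1245 CPM, beside 1240 CPM lost from 7A, but this balance depended on the scaling. With TMM, the sum over the run and both spans was 7811, 8047 and 8153 CPM in Fielder against 7889, 8169 and 7967 CPM in the mutant, means of 8004 ± 175 and 8008 ± 144 CPM (SD, n = 3). These groups overlapped, and the ratio was 1.0. With library size alone the gain was 906 CPM against a loss of 1264 CPM. The sum was then 8083, 8250 and 8147 CPM in Fielder but 7713, 7817 and 7877 CPM in the mutant, a ratio of 0.956, and all mutant values were below all Fielder values. After removal of each library's gene-length trend the gain was 792 CPM against a loss of 1250 CPM, the ratio was 0.944 and the groups were again apart. Summed FPKM gave a ratio of 1.03 with overlapping groups. These totals do not pair genes. The 434 members outnumber the 77 genes of the run, so if genes pair 1 to 1 most members have no partner in it. Homoeologs can share reads, how the counting split these is not given, and their part in the members' counts was not tested. In the middles of the spans, windows as many identifier steps wide as the run, the gain was 199 CPM over 92 genes on 7B (ratio 1.10) and 300.2 CPM over 84 genes on 7D (ratio 1.19), 499 CPM in all. The stretch of the 7B span before its middle had a ratio of 1.29, higher than in the middle, and the stretch after it had 1.11. On 7D these stretches had ratios of 1.25 and 1.17.

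The typical gene of the spans did not follow the sums. The median log2 fold change was -0.03 among the 177 tested genes of the 7B span, with quartiles of -0.47 and 0.49, and -0.01 among the 154 tested genes of the 7D span, with quartiles of -0.56 and 0.52. In the rest of 7B and the rest of 7D the medians were -0.01 and -0.02. Tested genes are those that passed the filter on low counts; 54 members on 7B and 49 on 7D did not pass it. The median standard error of a single gene's log2 fold change was 0.25 on 7B and 0.26 on 7D.

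Library by library, the medians overlapped too. The median deviation of log2 CPM from the mean of the 6 libraries was 0.07, -0.01 and 0.01 in Fielder and -0.02, 0.07 and 0.01 in the mutant on 7B. On 7D it was 0.07, 0.08 and -0.02 against 0.02, 0.02 and 0.08. Over the 9 pairs of libraries the mutant minus Fielder difference ran from -0.09 to 0.08 on 7B and from -0.07 to 0.10 on 7D. If the pair of remaining copies made up in equal parts for a lost copy of equal strength, each would rise 1.5-fold, which is 0.585 on the log2 scale. The median of all tested members cannot be read against that value. The run has 77 listed genes, so if genes pair 1 to 1 most members have no partner in it. A rise limited to partnered members need not bring the median of all members to 0.585. Members above 1.5-fold numbered 37 on 7B (20.9%) and 31 on 7D (20.1%), against 22.2% of all tested genes. Members lower by more than that factor numbered 28 (15.8%) and 36 (23.4%), against 19.6% of all tested genes. In the middles of the spans the medians were -0.13 over 78 tested genes on 7B and -0.08 over 69 on 7D. There 19.2% and 18.8% were above 1.5-fold, and 17.9% and 27.5% were lower by more than that factor. Whether the middles hold the partners of the run is not known here.

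**Figure D3:**
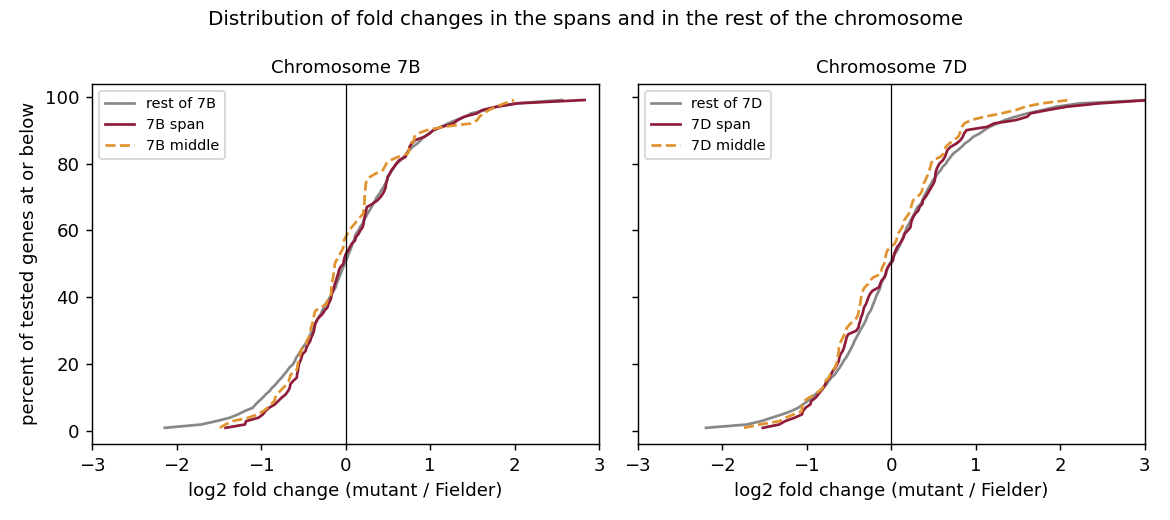
Percent of tested genes at or below each log2 fold change (mutant over Fielder), for the spans, their middles and the rest of the same chromosome. The curves run close together through 0, with medians of -0.03 for the 7B span and -0.01 for the 7D span beside -0.01 and -0.02 for the rest of 7B and 7D, and the middles have medians of -0.13 and -0.08.

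Much of the rise in the sums came from few genes. On 7B, 111 members had a higher mean CPM in the mutant and 120 a lower one, the rises adding up to 970 CPM and the falls to -363 CPM. The 5 members with the largest rises contributed 558 CPM, 91.9% of the net change, and without them the ratio of the sums was 1.02. The net change is what is left after the falls are taken off, so the rises together exceed it. On 7D, 97 members had a higher and 106 a lower mean, and the 5 largest rises contributed 559 CPM, 87.8% of the net change, leaving a ratio of 1.04. Leaving out only the gene with the largest rise gave 1.09 on 7B and 1.15 on 7D. Since these genes were picked for their rise, the ratios without them are lower by construction, and they cannot be set beside the untrimmed rest of the chromosome. Without the 5 most abundant genes, which were not picked by their rise, the ratio was 1.09 on both chromosomes.

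The gene with the largest gain in each span was also among the most abundant of that span. TraesCS7B02G209900 had 3881, 4739 and 4970 counts in Fielder against 9175, 9541 and 8709 in the mutant, with no overlap. Per length it rose from 206 ± 8.77 to 393 ± 14.5 FPKM (fragments per kilobase of gene, scaled to sequencing depth; SD, n = 3), and its log2 fold change was 0.998 ± 0.12 (SE, adjusted p = 6.4e-05, edgeR quasi-likelihood test), just short of the 2-fold limit. It alone made 47.9% of the net change of the 7B span. TraesCS7D02G306600 had 4089, 4313 and 5123 counts against 7942, 9053 and 7787, again without overlap. Its level went from 213 ± 8.28 to 369 ± 30.9 FPKM, a log2 fold change of 0.86 ± 0.13 (SE, adjusted p = 2.9e-04, edgeR), and it made 37.1% of the change of the 7D span. Both lie before the middles of their spans, and the files name neither gene.

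A further pair of strong gains was chosen after the values were seen. TraesCS7B02G219800, in the middle of the 7B span, had 653, 646 and 671 counts in Fielder against 2739, 2777 and 2281 in the mutant, a log2 fold change of 1.96 ± 0.15 (SE, adjusted p = 1.4e-06, edgeR). TraesCS7D02G315500, in the middle of the 7D span, had 472, 501 and 630 counts against 1964, 2240 and 1750, a log2 fold change of 1.88 ± 0.15 (SE, adjusted p = 2.5e-06, edgeR). Together with the genes named before, they were among the 5 largest gains of their spans. Whether they are homoeologs of each other, or of a gene in the 7A run, is not known here.

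**Figure D4:**
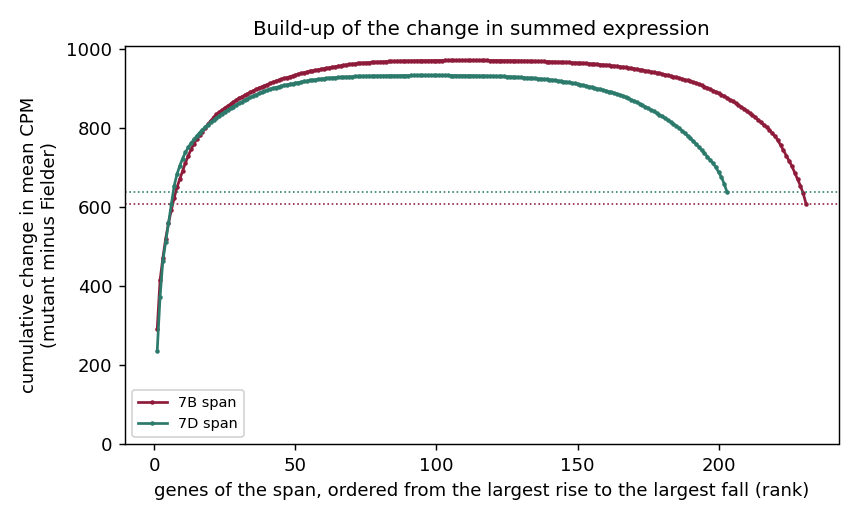
Cumulative change in mean CPM (mutant minus Fielder) over the genes of each span, added from the largest rise to the largest fall; dotted lines mark the net change. Both curves climb steeply over the first genes, reach 558 CPM (7B) and 559 CPM (7D) at rank 5, and end at 607 and 637 CPM.

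Of the 3 most abundant members of each span, leaving out the genes with the largest gain, 1 rose and 3 did not pass the test. TraesCS7B02G217900, the most abundant gene of the 7B span per length, had 6373, 7613 and 7885 counts in Fielder against 7193, 7829 and 7190 in the mutant, levels of 816 ± 36.2 and 783 ± 47.7 FPKM (SD, n = 3). Its log2 fold change was 0.01 (adjusted p = 0.975, edgeR) and its sign depends on the scaling. TraesCS7B02G213300 went from 181 ± 16.0 to 160 ± 5.24 FPKM (log2 fold change -0.11, adjusted p = 0.582, edgeR). In the 7D span the most abundant gene was TraesCS7D02G313800, with 615 ± 41.6 FPKM in Fielder and 803 ± 28.4 FPKM in the mutant. Its log2 fold change was 0.45 ± 0.12 (SE, adjusted p = 0.0162, edgeR, and up to 0.0587 with a library left out). TraesCS7D02G309500 had 167 ± 13.0 and 159 ± 8.65 FPKM (log2 fold change -0.01, adjusted p = 0.980, edgeR). The 5 most abundant members of the 7B span also include TraesCS7B02G217300 (log2 fold change 0.60, adjusted p = 0.0367, edgeR) and TraesCS7B02G217400 (0.76, adjusted p = 0.0067, edgeR), which both rose. Those of the 7D span include TraesCS7D02G313300, which rose (0.81, adjusted p = 0.0029, edgeR), and TraesCS7D02G313200, which did not pass the test (0.37, adjusted p = 0.0788, edgeR). By level, the 53 tested members of 7B with at least 10 FPKM in Fielder had a median log2 fold change of -0.02 and the 41 on 7D one of -0.06, beside -0.10 for all tested genes in that class.

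Gene by gene, calls were set at an adjusted p under 0.05 and a change of more than 2-fold. Of the 177 tested members on 7B, 16 were called higher (9.04%) and 5 lower (2.82%), and of the 154 on 7D, 11 were called higher (7.14%) and 6 lower (3.90%). Over all 52228 genes tested, 7.98% were called higher and 5.75% lower. For the rest of 7B these shares were 7.88% and 6.24%, and for the rest of 7D 8.30% and 6.30%. The shares of members called higher were near this background on both chromosomes, and those called lower were below it. With library size alone as the scaling the split on 7B was 13 higher and 7 lower, and with each library's trend with gene length removed it was 13 and 8. Both settings also lowered the median of all tested genes. The shares of all genes called under them are not given here, so these splits have no background. By adjusted p alone, with no limit on the fold, 30 members were higher and 16 lower on 7B (16.9% and 9.04%) and 25 higher and 19 lower on 7D (16.2% and 12.3%), against a background of 13.8% higher and 12.7% lower.

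Separation of the libraries gave a similar count. In 44 tested members on 7B and 37 on 7D all mutant libraries lay above all Fielder libraries, and in 38 and 33 all lay below. These are 24.9% and 24.0% higher and 21.5% and 21.4% lower, beside 22.2% higher and 21.0% lower over all tested genes.

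The largest rises by fold were in genes of low level in Fielder. TraesCS7B02G236500 had 18, 10 and 28 counts in Fielder against 277, 294 and 327 in the mutant, or 1.19 ± 0.504 and 19.1 ± 2.33 CPM (SD, n = 3), a log2 fold change of 3.99 ± 0.30 (SE, adjusted p = 1.3e-06, edgeR). TraesCS7B02G230000 had 54, 23 and 74 counts against 611, 659 and 684, a log2 fold change of 3.68 ± 0.29 (SE, adjusted p = 1.8e-06, edgeR), and with a gain of 38.4 CPM it was among the 5 largest gains of the 7B span. All mutant values were far above all Fielder values in both genes. On 7D, TraesCS7D02G326800 had 2, 0 and 2 counts in Fielder against 78, 48 and 78 in the mutant, at least 22.2-fold higher with the floor at 3 counts per library (adjusted p = 7.4e-05, edgeR). TraesCS7D02G326200 had 60, 71 and 63 counts against 764, 779 and 850, from 4.20 ± 0.466 to 50.9 ± 4.74 CPM (SD, n = 3), a log2 fold change of 3.60 ± 0.19 (SE, adjusted p = 5.3e-08, edgeR). All 4 lie after the middles of their spans.

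Falls were smaller. TraesCS7B02G225600 had 351, 452 and 291 counts in Fielder against 95, 136 and 119 in the mutant, a log2 fold change of -1.67 ± 0.24 (SE, adjusted p = 2.2e-04, edgeR). TraesCS7B02G213500 had 499, 572 and 521 counts against 302, 201 and 207, a log2 fold change of -1.20 ± 0.19 (SE, adjusted p = 4.2e-04, edgeR). The groups of both genes were apart, with the first mutant library of TraesCS7B02G213500 nearest to Fielder. TraesCS7D02G320400 had 100, 62 and 102 counts against 36, 22 and 26 (log2 fold change -1.68 ± 0.36 SE, adjusted p = 0.0039, edgeR). TraesCS7D02G310300 had 228, 196 and 222 counts against 109, 76 and 70 (log2 fold change -1.38 ± 0.24 SE, adjusted p = 8.5e-04, edgeR). No member fell to the extent seen in the 7A run, where the tested gene with the smallest fall had a log2 fold change of -5.82. Members that reached no more than 3 counts in any library of a group were counted apart. Of the 231 listed members on 7B, 4 were at this floor in Fielder alone, 15 in the mutant alone and 16 in both. Of the 203 on 7D these numbers were 13, 8 and 12. Over all 70043 listed genes they were 3456, 3313 and 4842.

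Calls differed in how far they rested on single libraries. Of the 21 called members on 7B, 11 were called in all 6 fits that left out a library, 8 of them higher and 3 lower. Of the 17 on 7D, 12 were, 9 higher and 3 lower. On 7B 6 and on 7D 2 of the called members were called in fewer than 4 of these fits. All 21 and all 17 were also called by DESeq2. The same shares over all called genes are not given here, so these counts have no background.

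Sums of other stretches set the scale for the ratios of the spans. The 7B genes of the same identifier width just before the span had a ratio of 1.08 and those just after it 1.02, and the corresponding values on 7D were 1.01 and 1.03. Along the chromosomes, 16 further blocks of the width of the 7B span had ratios from 0.741 to 1.22, and 2 of them exceeded the span's 1.16. Blocks of equal identifier width differ in gene number, and these 2 hold 128 and 120 listed genes against 231 in the span. Of 20 further blocks on 7D, with ratios from 0.687 to 1.22, 1 exceeded the span's 1.21, and it holds 150 listed genes against 203. All mutant libraries lay above all Fielder libraries in 7 of the 16 blocks on 7B and in 8 of the 20 on 7D. The medians of the spans fell inside the block range, which was -0.15 to 0.10 on 7B and -0.38 to 0.16 on 7D, and 8 and 10 blocks had a higher median than the span. The lowest 7D median came from a block with only 25 tested genes.

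**Figure D5:**
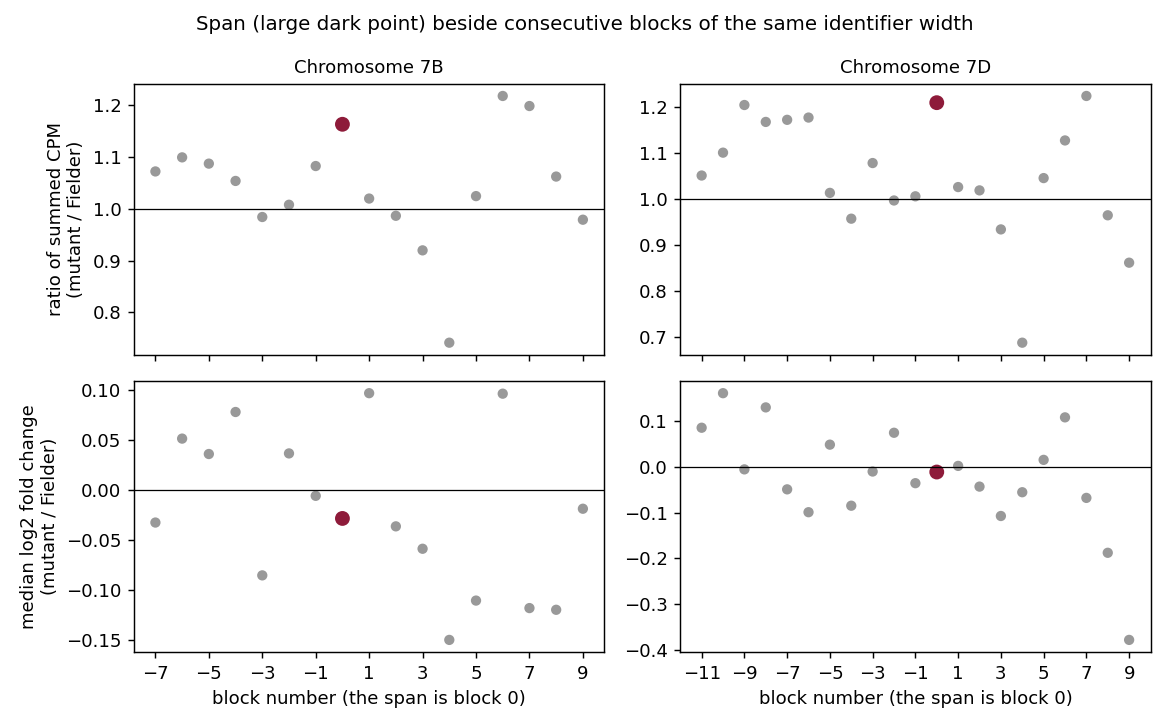
Ratio of summed CPM (mutant over Fielder, upper row) and median log2 fold change (lower row) of consecutive blocks with the identifier width of the span, on 7B and 7D. The spans (block 0) are near the top of the ratios, at 1.16 and 1.21 beside other blocks that reach 1.22 on both chromosomes, and are near 0 in the medians. The blocks at 1.22 hold fewer listed genes than the spans, 128 on 7B and 150 on 7D.

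On 7A itself, the summed expression on both sides of the run was also higher in the mutant. The 85 listed genes before it, over the same identifier width as the run, summed to 1693, 1629 and 1771 CPM in Fielder against 2065, 2230 and 2174 CPM in the mutant, a ratio of 1.27. The 84 genes after it summed to 1012, 1016 and 1007 CPM against 1339, 1240 and 1347 CPM, a ratio of 1.29. For the rest of 7A, these genes included, the ratio was 1.04. The median log2 fold changes before and after the run were 0.22 and 0.12. A positive change was seen in 43 of 69 tested genes before it (62.3%) and 38 of 67 after it (56.7%), against 50.2% of all tested genes. Those called higher were 2.90% and 10.4%, against 7.98%, and those called lower 1.45% and 4.48%, against 5.75%. Which members face these genes is not known here.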

How the data were processed

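The authors deposited a table of raw counts per gene and a table of FPKM for the 6 libraries (3 of Fielder, 3 of the mutant); reads had been mapped to the wheat reference genome of Ensembl Plants, and the aligner, counting tool and strand setting are not given in the sources used here. The sources differ on seedling age and library kit. Counts were tested with edgeR 4.0.16 in R 4.3.3 (filterByExpr, TMM, quasi-likelihood test, Benjamini-Hochberg over 52228 genes), and a call needed an adjusted p under 0.05 with a change of more than 2-fold. Sums are TMM-scaled CPM over all listed members, floors are 3 counts per library, and counting error and the spread between libraries are the only errors covered. DESeq2 1.42.0 and limma 3.58.1 (FPKM on the log2 scale, pseudocount 1 or 0.1) served as alternatives, with library size alone or RLE size factors, other filters, a test against the 2-fold limit, the removal of each library's trend with gene length, each library left out, and the middles of the spans. Python 3.11.15, pandas 2.3.3, numpy 2.4.6 and matplotlib 3.10.9 were used for summaries and plots. On simulated counts for the 52228 genes with 200 changed by 2 on the log2 scale, the edgeR step recovered 177 with 3 false calls.

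The members, windows and lists were chosen with earlier results of these data known. Named genes are, in each span, the called genes that rose most (2) and fell most (2), provided that the groups did not overlap and that each library of the higher group had 10 counts or more, the 3 with the highest mean FPKM in Fielder, and the tested genes at each boundary; in the 7A run, the 3 with the highest mean FPKM, with the edge genes of the run added later. None of the identifiers matched the RefSeq gene table (0 matches), so members have no names, roles, sequences or homoeolog pairs here. TaTFL1-5D was not analysed here.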

Additional observations from a re-analysis of the deposited data

How the results depend on the processing

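Directions of the summed ratios of the spans held under every alternative run, but their size did not. Against 1.16 on 7B and 1.21 on 7D, the ratios were 1.11 and 1.16 with library size alone, 1.09 and 1.14 with the length trend removed, and 1.09 on both without the 5 most abundant genes. Library size rescales all genes of a library alike, so the spans' shares of their chromosomes do not change with it. The mean shares were 9.15% and 10.3% on 7B and 6.29% and 7.35% on 7D, in Fielder and the mutant. Ratios for the rest of 7B and 7D under these alternatives are not given here. On 7B the ratio was 1.10 in the middle of the span and 1.12 for summed FPKM. Chosen after seeing the data, leaving out the gene with the largest rise gave 1.09 and 1.15, and leaving out the 5 largest rises 1.02 and 1.04. Leaving out each library in turn gave 1.15 to 1.17 on 7B and 1.20 to 1.22 on 7D. For the 7A run and both spans together, alternatives chosen after seeing the data moved the ratio from 1.0 to 0.956 with library size alone, 0.944 with the length trend removed and 1.03 for summed FPKM; leaving out libraries gave 0.989 to 1.01.

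The medians (-0.03 and -0.01) moved to -0.0943 and -0.0794 with library size alone, to -0.10 and -0.11 with the length trend removed, and to -0.13 and -0.0847 in the middles, and on 7D to -0.10 with limma on log2(FPKM + 0.1). The median of all tested genes was -0.06 with library size alone and -0.04 with the length trend removed. Leaving out libraries gave -0.04 to 0.01 on 7B and -0.0783 to 0.0291 on 7D, with the lowest 7D values without the first Fielder library and without the third mutant library.

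Calls (21 and 17) became 3 and 5 in the test against the 2-fold limit, and 9 on 7B with limma on log2(FPKM + 1). The shares of all tested genes called in these settings are not given here. With no limit on the fold they became 46 and 44, beside 13.8% higher and 12.7% lower over all tested genes. The middles hold only 78 and 69 tested genes, of which 8 and 8 were called. These were 7.69% higher and 2.56% lower on 7B and 5.80% each way on 7D, against 7.98% and 5.75% of all tested genes. Leaving out libraries gave 16 to 24 and 13 to 18. The replicate numbers do not pair the libraries: deviations of same-numbered libraries correlated at -0.02, 0.05 and 0.01, and not every library correlated best with its own number. With the replicate number as a block, 21 and 17 members were called and the medians were 0.00 and -0.03.

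Among the named genes, TraesCS7B02G217900 turned to -0.0601 with library size alone, -0.0607 and -0.0608 with limma (pseudocounts 1 and 0.1) and -0.27 with the length trend removed, TraesCS7B02G208000 to -0.024 with the length trend removed, and TraesCS7D02G309500 to 0.0003 with no filter and 0.0093 with a minimum of 10 counts. Leaving out libraries gave them -0.0425 to 0.0595, -0.0009 to 0.2076 and -0.0606 to 0.0253. None of the 3 was called. The 4 named falls in the spans were not called in the test against the 2-fold limit, and TraesCS7B02G209900 passed the 2-fold limit in 5 alternatives. The causes of these shifts were not tested.

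Limits: no gene of the 7A run is paired with its 7B or 7D copies, and medians run over all members, partnered or not; a single edited line and 3 libraries a group were compared; and antenna and replication genes differed strongly between the groups.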
